A study of Mus musculus with 7 samples.

Results

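The genes of the node of Ranvier and of the junctions beside it were followed in bulk RNA from the medial prefrontal cortex of mice. They are the 9 rows of the authors' deposited table whose symbols are Cntn1, Cntn2, Cntnap1, Cntnap2, Nfasc, Ank3, Sptbn4, Gjb1 and Jam3, of 17732 listed genes, and all 9 had enough reads for an adjusted p-value. They were split by where their proteins are known to lie, into 5 axonal genes (Ank3, Sptbn4, Cntn1, Cntnap1 and Cntnap2), 2 glial genes (Jam3 and Gjb1) and 2 genes with an axonal and a glial product (Nfasc and Cntn2). The animals were male wild-type mice of the inbred strain 129SvEv, sampled after retrieval of a remote memory, in a group labelled CFC (3 libraries) and a group labelled SC (4 libraries). What CFC and SC stand for, and the age of the mice, are not given in the labels. The libraries are taken here as separate samples, and if they do not come from separate animals, the p-values measure a technical spread.

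A node of Ranvier is a short gap in the myelin sheath where sodium channels are clustered and the action potential is renewed. Inside the axon, ankyrin and spectrin anchor these channels. On both sides lies the paranode, where a complex of contactin and Caspr on the axon binds a glial form of neurofascin on the loops of the oligodendrocyte. Farther out is the juxtaparanode, where potassium channels are held by a second pair of the same families. In the cortex, parvalbumin interneurons are among the neurons whose axons are myelinated.

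The authors' deposited table holds 1 comparison, with 3 measured values per gene: a mean normalized count over the 7 libraries, a log2 fold change from one group to the other and its standard error, given below as ± SE. Values of single libraries were not analysed here, and the numerator of the fold change is not stated. Each difference is therefore given by its sign, and neither group is called higher. Of 13060 genes with an adjusted p-value, 67 were under 0.05 in the authors' deposited table, which is 0.513% of the genes tested. The 5 markers of excitatory cortical neurons had mean counts from 2316 to 106077 in the authors' deposited table. All 6 markers of striatal neurons were positive, and one of them, Drd1, was under 0.05 there; their part in any result below was not tested.

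None of the 9 node and paranode genes was under an adjusted p-value of 0.05, against 0.513% of all genes tested. The adjusted p-values of the 9 genes in the authors' deposited table ran from 0.256 to 0.992. One gene, Cntn2, had an unadjusted p-value under 0.05 in that table, a property that 8.1% of the genes tested share. A positive sign was found for 6 genes, where 49.4% of all genes tested were positive, and the 3 negative genes were all axonal. The median log2 fold change of the 9 genes was 0.08, beside -0.0017 over all genes tested. The 5 axonal genes had a median of -0.05, the 2 genes of both sides 0.26 and the 2 glial genes 0.62. These medians describe very few genes, and the differences between the sides were not tested. The median of the axonal genes became positive, at 0.08, when Nfasc and Cntn2 were counted with them.

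**Figure D1:**
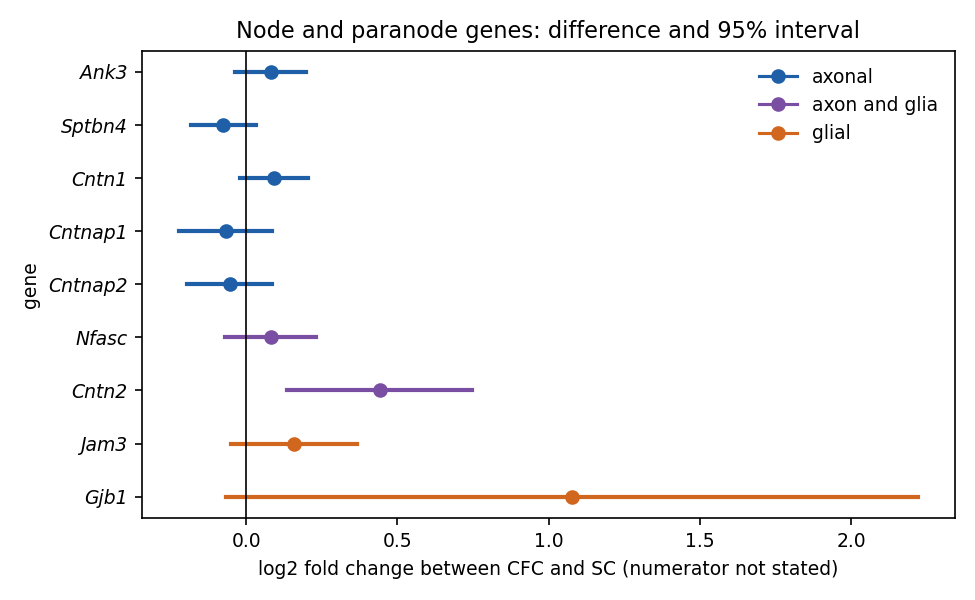
Log2 fold change between CFC and SC (x axis, numerator not stated) for each of the 9 genes (y axis). Points are the deposited values and lines their 95% confidence intervals. The 5 axonal intervals stay between -0.22 and 0.20, that of Cntn2 lies above 0, and that of Gjb1 runs from -0.07 to 2.22.

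The scaffold of the node was measured precisely and lay close to 0. Ank3 encodes ankyrin-G, the adaptor that holds sodium channels at the node and at the start of the axon. Its mean count of 14204 was the highest of the 9 genes, and its log2 fold change was 0.08 ± 0.06 (adjusted p = 0.906) in the authors' deposited table. Its 95% interval reached from 0.974-fold to 1.15-fold. Sptbn4 encodes beta-IV spectrin, which links ankyrin-G to actin. It had a log2 fold change of -0.08 ± 0.06 (adjusted p = 0.891) at a mean count of 5662, by the authors' deposited table, and its interval reached from 0.88-fold to 1.02-fold. The signs of these binding partners were opposite, and both intervals included no difference. GENCODE M21 lists 47 transcripts for Ank3 (chromosome 10, 69398773 to 70027438, GRCm38), with an exon as long as 7674 bases, and 7 for Sptbn4 (chromosome 7, 27356383 to 27447686). A count per gene adds them all, so a shift between the isoforms of Ank3 could not be seen.

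The other axonal genes of the node were close to 0 as well. The list held 12 channels, adhesion molecules and scaffold proteins of the node, of which none was under the adjusted threshold, 7 were positive and 5 negative. Their median log2 fold change was 0.0020. An unadjusted p-value under 0.05 was given for 2 genes, both negative, where 3.54% of all genes tested had a negative sign and such a p-value. Kcnk4, a background potassium channel, had the lowest statistic, at a log2 value of -0.28 (adjusted p = 0.45) by the authors' deposited table. The highest statistics belonged to Nrcam, the adhesion molecule that joins neurofascin at the node, and Scn2a, an axonal sodium channel. Both had a log2 fold change of 0.08 in the authors' deposited table (adjusted p = 0.859 and 0.87).

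The axonal pair of the paranode gave 2 small values of opposite sign. Cntn1 encodes contactin, the GPI-anchored partner, which cells of the oligodendrocyte lineage make too. At a mean count of 11385, the authors' deposited table gives it a log2 fold change of 0.09 ± 0.06 (adjusted p = 0.821). Its interval reached from 0.987-fold to 1.15-fold. Cntnap1 encodes Caspr, the transmembrane partner. Here the authors' deposited table has a mean count of 5722 and a log2 fold change of -0.07 ± 0.08 (adjusted p = 0.987), and the interval reached from 0.857-fold to 1.06-fold. Differences larger than these bounds lie outside the intervals of the pair. Cntn1 lies on chromosome 15 (92051165 to 92341967) and Cntnap1 on chromosome 11 (101170523 to 101190724, GRCm38). The exons of Cntnap1 share 233 bases, 3.97% of their length, with those of Plekhh3 on the opposite strand, whose log2 fold change was -0.0017 in the authors' deposited table.

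Nfasc encodes neurofascin, and its 2 main products lie on different cells: a neuronal form at the node and a glial form on the paranodal loops. Its log2 fold change was 0.08 ± 0.08 (adjusted p = 0.969) at a mean count of 7103 by the authors' deposited table. Its interval reached from 0.953-fold to 1.17-fold. The table counts reads per gene, so this value is the sum of both forms. GENCODE M21 lists 10 transcripts at chromosome 1, 132564690 to 132741797, of which 5 have a complete coding sequence, from 2697 to 4041 bases long. How much of the count is glial was not analysed here, and the forms cannot be told apart in this table.

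At the juxtaparanode the partners differed in size and in precision. Cntnap2 encodes Caspr2, which holds potassium channels there. With a mean count of 2986, it had a log2 fold change of -0.05 ± 0.07 (adjusted p = 0.992) in the authors' deposited table. Its interval reached from 0.874-fold to 1.06-fold. Cntn2 encodes TAG-1, a contactin found on the axon and on the facing glial membrane, and had the smallest p-value of the 9 genes. Its mean count was 2653 and its log2 fold change 0.44 ± 0.16 by the authors' deposited table, with p = 0.00474 before and p = 0.256 after adjustment over all genes. There were 261 genes with a smaller unadjusted p-value among those tested. The interval of Cntn2, from 0.13 to 0.75 on the log2 scale or 1.1-fold to 1.68-fold, did not meet that of Cntnap2, from -0.19 to 0.08. Both come from the same 7 libraries, and the difference between these genes was not tested. The remaining axonal genes of the paranode and juxtaparanode numbered 11, with 6 positive, 5 negative, none under the adjusted threshold and a median log2 fold change of 0.0082. The potassium channel Kcna1 and the channel subunit Kcnab2, which is bound to it, stood at 0.19 (adjusted p = 0.391) and -0.17 (adjusted p = 0.398) on the log2 scale of the authors' deposited table. Ank2, an ankyrin, and Dlg4, a scaffold protein, had 0.10 and -0.11 there. These 4 were the genes of the list with an unadjusted p-value under 0.05, a count to read beside 8.1% of all genes tested.

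Cntn2 and Gjb1 had the largest values of the 9 genes, so the sequences before their start sites are shown, as RefSeq gives them for GRCm38.p6. The Cntn2 sequence was ended at the nearest annotated exon, and it lies in an intron of a transcript that starts farther upstream. The capitals mark ACAAAG, a core bound by SOX factors such as SOX10 of oligodendrocytes, which was searched on both strands. All sequences are read 5′ to 3′ on the strand of the gene, and each ends at the base before the start. The Cntn2 sequence is chr1:132542941-132543028 on the minus strand, and those of Gjb1 are chrX:101376126-101376375 and chrX:101383482-101383731 on the plus strand, before the first and the last of the start sites listed.
Cntn2: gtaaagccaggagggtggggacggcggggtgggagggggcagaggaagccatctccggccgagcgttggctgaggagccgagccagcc
Gjb1 upstream start: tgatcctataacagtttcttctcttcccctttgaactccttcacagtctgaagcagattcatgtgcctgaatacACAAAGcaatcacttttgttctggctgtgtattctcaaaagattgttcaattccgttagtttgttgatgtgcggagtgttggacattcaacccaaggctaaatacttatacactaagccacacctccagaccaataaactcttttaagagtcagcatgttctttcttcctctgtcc
Gjb1 downstream start: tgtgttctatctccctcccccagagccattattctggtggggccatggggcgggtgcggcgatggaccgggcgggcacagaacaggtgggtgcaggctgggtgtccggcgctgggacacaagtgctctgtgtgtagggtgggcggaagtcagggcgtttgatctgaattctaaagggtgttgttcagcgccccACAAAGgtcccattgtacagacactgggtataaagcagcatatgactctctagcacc
The core begins at position -176 before the upstream start and at -57 before the downstream one. RefSeq start sites were found for 6 of the 9 genes, with 16 windows of 250 bases in all, and these 2 windows of Gjb1 were the ones that hold the core. Not shown are the windows before the other listed starts of Gjb1, at 101377235 and 101382118, which do not hold the core. Of all 32851 windows of that length, 16.5% hold it. A match is a run of letters, and nothing about binding was measured.

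On the glial side, one gene had a large and imprecise value and the other a small one. Gjb1 encodes connexin 32, a gap junction protein of myelinating glia that couples the layers of the sheath at the paranode. Its mean count was only 46.0 and its log2 fold change 1.08 ± 0.58 by the authors' deposited table, with p = 0.0652 before and p = 0.724 after adjustment over all genes. The interval reached from 0.954-fold to 4.66-fold, so it holds no difference as well as one of several fold. At this standard error a log2 fold change of 2.15, or 4.44-fold, would have been needed to reach the p-value of the last gene called. Jam3 encodes a junctional adhesion molecule found at the paranodes of myelinating glia, which other cells make too. It had a log2 fold change of 0.16 ± 0.11 (adjusted p = 0.859) and 340 as its mean count in the authors' deposited table, and its interval reached from 0.966-fold to 1.29-fold. The exons of Jam3 (chromosome 9, 27097384 to 27155421) share 1159 bases, 36.2% of their length, with those of the antisense gene Gm48796, and without the strand setting reads of the pair cannot be told apart. Gjb1 (chromosome X, 101376378 to 101385629) had no such overlap in GENCODE M21.

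Most genes listed as glial partners, for paranodal loops, junctions and galactolipid enzymes, lay on the positive side with Gjb1 and Cntn2. Not all of them are particular to the paranode or to oligodendrocytes. Of 12 such genes, 11 were positive and 1 negative, and none was under the adjusted threshold. Their median log2 fold change was 0.75, and 8 had an unadjusted p-value under 0.05 with a positive sign, as 4.56% of all genes tested had. Cd9, a tetraspanin, had the smallest p-value, at a log2 value of 0.56 ± 0.17 (adjusted p = 0.106) by the authors' deposited table. Cldn11, the claudin of the tight junctions of myelin, stood at 1.42 ± 0.55 (adjusted p = 0.359) there. At the other end, Pllp, a proteolipid of myelin, had 0.13, and Adam17, a protease made by many cells, had -0.04 in the authors' deposited table.

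Markers of compact myelin and mature oligodendrocytes had the same sign as the glial genes. All 11 markers with an adjusted p-value were positive, none of them was under 0.05 after adjustment and all 11 were under it before, as 4.56% of all genes tested were with a positive sign. Their log2 fold changes ran from 0.95 to 1.67 with a median of 1.19. The twelfth, Klk6, was listed at a mean count of 1.99 by the authors' deposited table, with no adjusted p-value. The value of Gjb1 lay within this range, and those of Cntn2, Jam3 and Nfasc lay below it. The part of these markers in the values of Gjb1 and Cntn2 was not tested. In bulk RNA, more cells of a type and more RNA per cell cannot be told apart. The 7 markers listed for precursors, 5 positive and 2 negative, had a median log2 fold change of 0.16 but were divided. Not all of them are confined to precursors, since Sox10 and Enpp6 are also made at later stages of the lineage. Pdgfra and Gpr17 stood at -0.04 and -0.12 in the authors' deposited table, and Sox10 and Enpp6, the 2 with an unadjusted p-value under 0.05, at 0.60 and 0.97. The 5 microglial markers were all negative with a median of -0.13, and the 4 endothelial ones all negative with a median of -0.17. Of all genes tested, 49.4% were positive. Among the other lists, astrocyte markers had a median of -0.03, inhibitory neuron markers 0.0032 and excitatory neuron markers -0.03. Of these lists, that of excitatory neurons held 1 gene under the adjusted threshold, Camk2a, at -0.29 in the authors' deposited table. For comparison, 0.145% of all genes tested were called with a negative sign. Nrgn of the same list stood at -0.28 (adjusted p = 0.0756) in the authors' deposited table, and 2 of the 5 excitatory markers were positive.

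**Figure D2:**
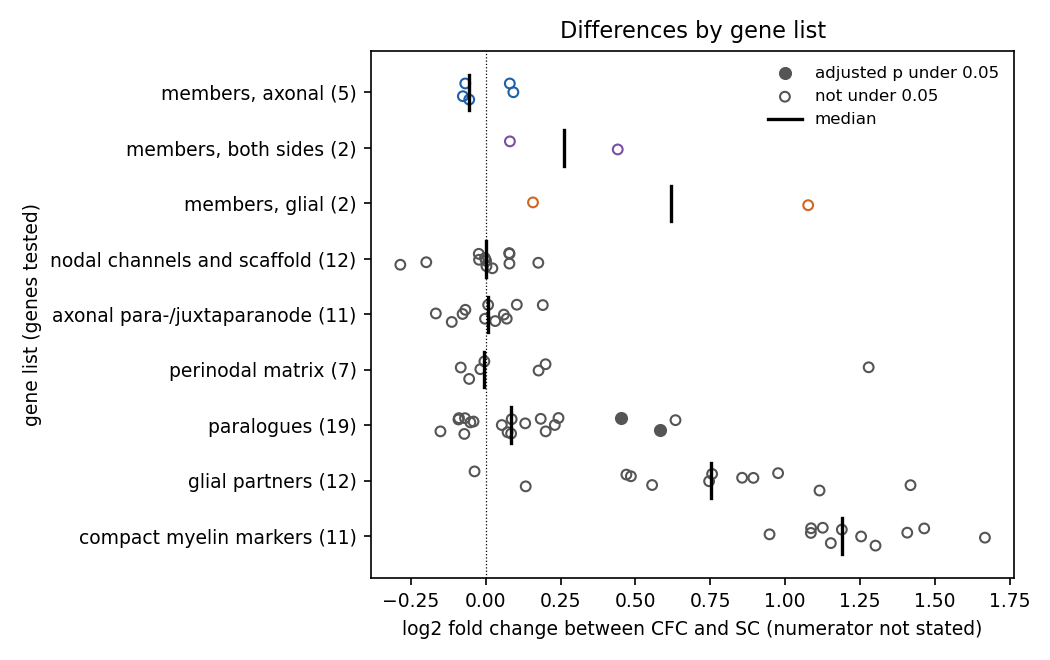
Log2 fold change between CFC and SC (x axis, numerator not stated) of every tested gene in 9 lists (y axis, number of genes in brackets); bars are medians, filled points are under an adjusted p-value of 0.05 and points are spread vertically for legibility. The axonal lists centre on 0, the glial partners on 0.75 and the compact myelin markers on 1.19, and the filled points are Cntnap3 and Cntnap4.

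Cntn2 and Gjb1 also had wide standard errors for their abundance. Each standard error was divided by the median standard error of the 200 genes on each side in mean count. For the 5 axonal genes this ratio lay between 0.938 and 1.34, for Jam3 it was 0.964 and for Nfasc 1.32. It was 2.51 for Cntn2 and 2.16 for Gjb1, and 1.85% of all genes tested had a ratio above 2. Among the glial partners 6 of 12 were above 2, and among the compact myelin markers all 11, with ratios from 3.15 to 9.01. Of the 7 markers listed for precursors 3 were above 2, the highest at 6.32, with Sox10 (3.13) and Enpp6 (2.44) among them. Wide standard errors were not confined to these lists. Of the 6 striatal markers 5 were above 2, the highest at 3.92. So were 1 of 6 astrocyte markers, Gfap (5.65), and 1 of 6 inhibitory neuron markers, Pvalb (2.52). None of the microglial, endothelial and excitatory neuron markers was above 2. Of the 12 nodal axonal genes 2 were above 2, the sodium channel genes Scn1a (2.69) and Scn4b (4.71), both singled out after their values had been seen.

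The same values can be read as a spread between libraries, as fitted by the authors' model. DESeq2 by default pulls each gene's dispersion towards a trend, so this spread may in part be that of the trend. With counting error subtracted and equal library depths assumed, the standard errors correspond to a coefficient of variation of 4.81% to 7.03% for the axonal genes. It was 6.86% for Nfasc, 7.92% for Jam3, 14.0% for Cntn2 and 50.9% for Gjb1. The median over all genes tested was 7.72%, and the compact myelin markers ran from 35.1% to 53.5%. The 6 striatal markers ran from 10.9% to 63.3%. Counting error alone would have given Gjb1 a standard error of 0.16, and the deposited one was 3.59 times as large. For Cntn2, with far more reads, the ratio was 7.30, and counting error was thus a small part of both. Which libraries carry this spread was not analysed here.

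**Figure D3:**
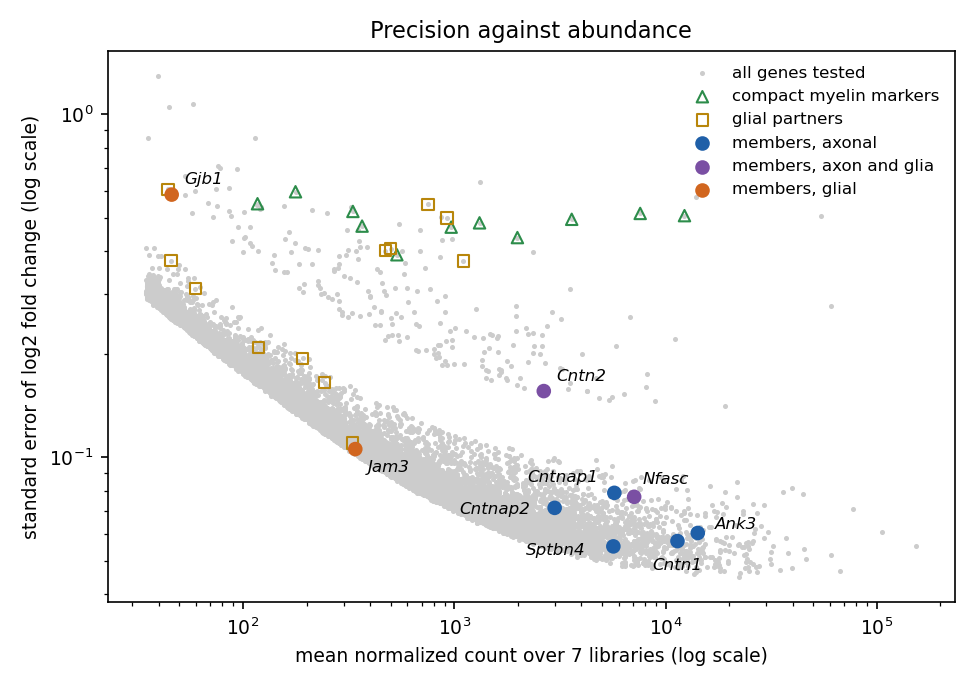
Standard error of the log2 fold change (y axis, log scale) against the mean normalized count over the 7 libraries (x axis, log scale) for all 13060 genes tested (grey) and the groups named in the key. The axonal genes, Nfasc and Jam3 lie within the main band, and Cntn2 and Gjb1 lie above it, as do 6 of the glial partners and all 11 compact myelin markers.

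Among relatives of the 9 genes, 2 Caspr genes were called. Of 19 paralogues, 2 were under the adjusted threshold, both positive and both of the Caspr family, where 0.368% of all genes tested were called with a positive sign. Cntnap4, a Caspr of interneuron synapses, stood at 0.45 ± 0.09 on the log2 scale (adjusted p = 9.07e-04) at a mean count of 730 by the authors' deposited table. Cntnap3, at a mean count of 244, stood at 0.58 ± 0.15 (adjusted p = 0.0361) in the authors' deposited table. All 5 paralogous Caspr genes were positive, from 0.05 to 0.63 with a median of 0.45. An unadjusted p-value under 0.05 was given for 3 of them, where 4.56% of all genes tested had a positive sign and such a p-value. The highest value was that of Cntnap5c, at 0.63 (adjusted p = 0.159) in the authors' deposited table. Cntnap1 and Cntnap2 were negative, with intervals that included 0. The 3 Cntnap5 genes are closely related, and their counts may be split between them. The intervals of Cntnap4 (0.27 to 0.63) and Cntnap3 (0.28 to 0.88) did not meet those of Cntnap1 and Cntnap2, but the differences between the genes were not tested. Cntnap3 and Cntnap4 were singled out because they were called, so intervals away from 0 follow from that choice. Cntnap5a, the lowest of the 5 paralogous Caspr genes, stood at 0.05 ± 0.19 in the authors' deposited table. The 6 striatal markers were positive too, with a median of 0.95, and their part in the calls of Cntnap3 and Cntnap4 was not tested.

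The other families held no called gene. The 4 contactin paralogues had log2 fold changes from -0.07 to 0.13, 1 of them positive, beside 0.09 for Cntn1 and 0.44 for Cntn2. Among relatives of neurofascin, Chl1 stood at 0.18 (adjusted p = 0.4) in the authors' deposited table. The spectrin gene Sptb was negative like Sptbn4, at -0.09 (adjusted p = 0.864) in the authors' deposited table. The matrix around the node was measured through 7 genes, with a median log2 fold change of -0.0043. Its exception was Hapln2, a link protein that oligodendrocytes make for the nodal matrix. It stood at 1.28 ± 0.52 (adjusted p = 0.406) in the authors' deposited table, and its ratio of standard errors was 2.77. Vcan, the versican proteoglycan, had 0.20 there, and Bcan and Tnr, which neural cells make more widely, had -0.08 and -0.06.

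Levels were compared per length, as the mean normalized count of the authors' deposited table divided by the kilobases of all annotated exons. Cntn1 was at 1207 per kb and Cntnap1 at 974, ahead of Sptbn4 (592), Nfasc (502) and Ank3 (408). Cntnap2 and Cntn2 were next to each other at 291 and 285. The glial genes were the lowest, with Jam3 at 106 and Gjb1 at 27.0. Of the genes tested, which start at a mean count of 34.9, 98.5% had a lower mean count than Cntn1 and 3.45% a lower one than Gjb1. The table gives no spread of the levels over libraries, so neighbours in this order were not tested. With the longest transcript as the length, Ank3 moved up to 1426 per kb, behind Cntn1 alone (2008), because its exons add up to 34838 bases and its longest transcript to 9963. Nfasc and Sptbn4 then changed places, at 729 and 647 per kb, as did Cntn2 and Cntnap2, at 362 and 304.

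**Figure D4:**
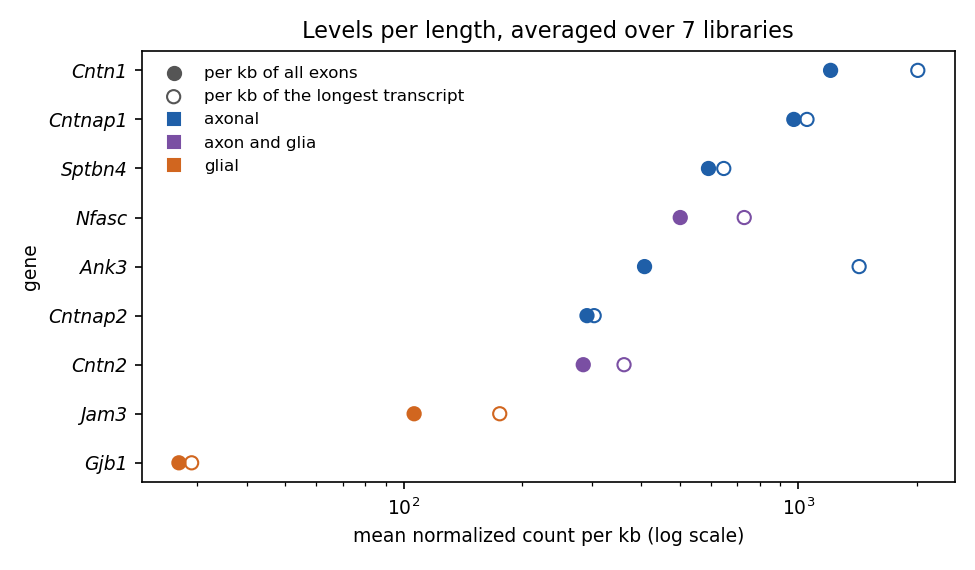
Mean normalized count per kb of sequence (x axis, log scale) for the 9 genes (y axis), divided by the length of all exons (filled) or of the longest transcript (open) and coloured by side. Axonal genes lie to the right, from 291 per kb upwards, and the glial genes at 106 and 27.0 per kb of exons.

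Cntn2 and Nfasc, the genes with products on both sides, are also neighbours. Both lie on the minus strand of chromosome 1, Cntn2 from 132509427 to 132543256, with 21433 bases between them. Their exons shared no base with each other or with another annotated gene in GENCODE M21. Their log2 fold changes, 0.44 and 0.08 in the authors' deposited table, were positive in both.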

How the data were processed

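Per the labels' protocols, the 7 libraries come from RNeasy Micro extracts and the KAPA mRNA HyperPrep kit. Trimmomatic, Subread, DESeq2 and the build mm10 are named per the submitters' processing notes, with no versions; the annotation and strand setting are not given in the sources used here. The authors deposited 1 table of results. Per the file headers, it holds a mean normalized count (a signal averaged over libraries by the authors), a log2 fold change, the standard error of that value (log2), the Wald statistic (a score) and an unadjusted and an adjusted p-value. It was read as the comparison of CFC with SC, since the labels hold no other groups. DESeq2, the tool the authors name, by default pulls each gene's dispersion towards a trend and leaves far outliers where they are; the authors' settings are not given in the sources used here.

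The Wald test of DESeq2 in the authors' deposited table was the test, two-sided. A gene was called when its adjusted p-value, taken over all genes, was under 0.05. Depth per library is unknown; mean counts of the listed genes add up to 18245035. Intervals are the log2 fold change plus or minus 1.96 standard errors. Lengths, positions and overlaps come from GENCODE M21 (GRCm38), which held 17726 of the 17732 IDs. Where a symbol had several IDs, the one with the highest mean count was used. Python 3.11.15, pandas 2.3.3 and scipy 1.17.1 were used, and the adjustment, the fold null and the running median were tested on simulated data. The genes and lists were chosen with earlier results of these data known. Named are all 9 genes and, of each list, the called genes and the 2 highest and 2 lowest Wald statistics. Some genes that this rule selects are not reported here. A list is described by counts and medians, with no test. Thresholds, filters, adjustments, a fold null, windows, lengths and the split by side were varied.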

Additional observations from a re-analysis of the deposited data

How the results depend on the processing

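No paired analysis was possible because single libraries have no column in the file used; likewise, fits without a replicate, with a replicate block, or with another normalization, count test or low-count filter were not run, and whether 1 library decides a value was not tested. The count of 0 among the 9 genes stayed 0 in all 6 alternatives, and all 45 recomputed adjusted p-values of these genes stayed above 0.05, from 0.235 (Cntn2, adjusted over those listed genes that carry an adjusted value) upwards. The 67 called genes became 101 at a threshold of 0.1, 21 with Bonferroni and 2 against a null of at most 1.2-fold. The 2 called paralogues became 1 with Bonferroni, which lost Cntnap3, and 0 against the 1.2-fold null. The called excitatory marker became 2 genes at a threshold of 0.1 and 0 against the 1.2-fold null, and the called striatal marker 0 against that null. These settings are stricter or looser by construction. The median of the axonal genes, -0.05, changed sign to 0.081 with Cntn2 and Nfasc counted as axonal. Per kb of the longest transcript the levels were 2008 for Cntn1, 1052 for Cntnap1, 1426 for Ank3, 647 for Sptbn4, 175 for Jam3, 362 for Cntn2 and 729 for Nfasc. Ratios of standard errors stayed on their side of 2 with 100 genes on each side. Gjb1 had the fewest reads, at a mean count of 46.0, and counting error alone gives it a standard error of 0.16.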
